A study of Rattus norvegicus with 20 samples.

Results

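Arteries of rats with inherited hypertension were compared with arteries of rats made hypertensive by an operation on the renal circulation. The inherited side held 4 arrays of SHR/Izm, the spontaneously hypertensive rat, and 4 arrays of SHRSP/Izm, its stroke-prone substrain. The renovascular side held 4 arrays of WKY/Izm rats with the 2-kidney 1-clip operation (2K1C) and 4 arrays of WKY/Izm rats with the 1-kidney 1-clip operation (1K1C). These 16 of the 20 arrays of the series were chosen by their titles, and the other 4 arrays, from WKY/Izm rats without an operation, served as a reference level. RNA came from whole mesenteric artery in all 5 groups. The labels give an age of 6 weeks for every group. They also give 3 weeks of treatment for all 3 WKY/Izm groups, with and without an operation alike, and do not settle whether 6 weeks was the age at operation or at sampling. They call the arrays of a group biological replicates and do not say whether animals were pooled, so the p-values measure the spread between these samples.

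In SHR and SHRSP, high blood pressure develops without intervention and is carried by many loci fixed during inbreeding. In 2K1C, a clip narrows the artery of a kidney while the other stays in place, and hormones released by the clipped kidney drive the pressure. In 1K1C, the clipped kidney is the only one left, and retained salt and water carry more of the pressure. Small mesenteric arteries are resistance vessels whose smooth muscle, endothelium and matrix set much of the peripheral resistance. No blood pressure was examined here. Strain differed between the sides together with the kind of hypertension, since both operated groups were WKY/Izm, and SHR and SHRSP shared 1 slide on which no other group lay. Strain, kind of hypertension and slide cannot be told apart in this comparison.

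The levels below are log2 signals of a gene's probe after subtraction of the array's 75th percentile, so 0 marks a bright probe and values near -8 lie at background. A difference is the mean of the SHR and SHRSP group means minus the mean of the 2K1C and 1K1C group means. All differences and adjusted p-values come from limma with Benjamini-Hochberg adjustment over 16424 genes, called under 0.05. The 75th percentile of signal ran from 574 to 1193 over the 20 arrays, and 66.5% to 71.7% of spots were well above background. The number of arrays limits the precision. The smooth muscle list held 13 of 14 genes well above background on all 20 arrays and the endothelial list 14 of 14, so the vessel's own markers were present. Some arrays stood apart in marker lists. SHR 1 and 1K1C 2 had mean smooth muscle levels of 2.34 and 0.47, against 3.06 to 4.54 in 2K1C. The array 1K1C 1, at 2.515, lay close to SHR 1. 2K1C 4 and SHRSP 4 had mean lymphocyte marker levels of 1.46 and 0.30, while the next highest array of the 20 was at -2.34. In the neuron list, 2K1C 1 was at 1.44 and untreated WKY 1 at 4.27, while the other 15 arrays compared ran from -2.81 to -1.57. In whole tissue, fewer cells of a type and less RNA per cell cannot be told apart.

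Of 16424 genes, 519 differed between the inherited and the renovascular arteries in the pooled comparison (3.16%), 237 higher in the inherited arteries (1.44%) and 282 lower (1.72%). An unadjusted limma p under 0.05 was found for 2897 genes (17.6%), the share against which such counts in the gene lists are to be read. Without the 4 arrays that stood apart in smooth muscle or lymphocyte markers (SHR 1, 1K1C 2, 2K1C 4 and SHRSP 4), 440 genes were called. That fit kept 2K1C 1 and untreated WKY 1, which stood apart in the neuron list. With slide as a random block 121 genes were called and with group as a random block 271, and all 66 genes of the stricter set below were among them in both. These block fits joined SHR with SHRSP and 2K1C with 1K1C, so differences between the strains or the operations entered their spread. The fewer calls therefore cannot be laid to slide alone. SHR and SHRSP lay alone on their slide, so no block fit can separate slide from the sides. The 66 genes were chosen for agreement within each side, which favours their calls here. On the deposited signals without scaling the pooled call held 589 higher and 96 lower genes, with the median of all genes at 0.23. A pooled call can come from 1 strain or 1 operation alone, and 149 of the 519 genes were called in none of the 4 single pairs of a strain and an operation. A stricter set was formed by the genes called in the same direction in SHR against 2K1C, SHR against 1K1C, SHRSP against 2K1C and SHRSP against 1K1C. It held 66 genes (0.402%), 34 higher in both strains (0.207%) and 32 lower (0.195%). The share of all genes called was 1.61% for SHR against 2K1C, 1.62% for SHR against 1K1C, 1.15% for SHRSP against 2K1C and 1.56% for SHRSP against 1K1C. These single counts moved widely with 1 array left out, from 109 (without 1K1C 1) to 1544 (without SHR 1) for SHR against 1K1C. For SHRSP against 1K1C they ran from 157 (without 1K1C 2) to 1367 (without 1K1C 4), for SHR against 2K1C from 149 to 337, and for SHRSP against 2K1C from 123 to 238. The 4 pairs share arrays and are not independent of each other. Without the 4 arrays that stood apart, 63 genes met the rule, of which 54 were among the 66, and all 66 were still called in the pooled comparison.

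The 66 genes included Afp, the fetal serum carrier alpha-fetoprotein, and Gpr35, an orphan G protein-coupled receptor, both higher in SHR and SHRSP. Ptgr1, which inactivates prostaglandins and leukotriene B4, Endog, the mitochondrial endonuclease G, Gatm, which makes the creatine precursor guanidinoacetate, and Acot5, a peroxisomal acyl-CoA thioesterase, were lower. The size of the difference had a median of 1.34 and ran from 0.45 for Exosc2 to 7.61 for RGD1311103, with 44 genes over 1 and 19 over 2. The array values of the inherited and renovascular sides did not overlap for 64 of the 66, against 167 of all genes tested (1.02%), and the exceptions were Acot5 and Mcm7. That separation follows in part from the rule. At the edge of the rule, the highest of the 4 adjusted p-values was 0.0461 for Exosc2, 0.0449 for the unnamed probe A_64_P058749 and 0.0438 for RGD1566102 on the inner side. On the outer side it was 0.0513 for Dusp19, 0.0526 for Cep295 and 0.0552 for Acsf2.

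**Figure D1:**
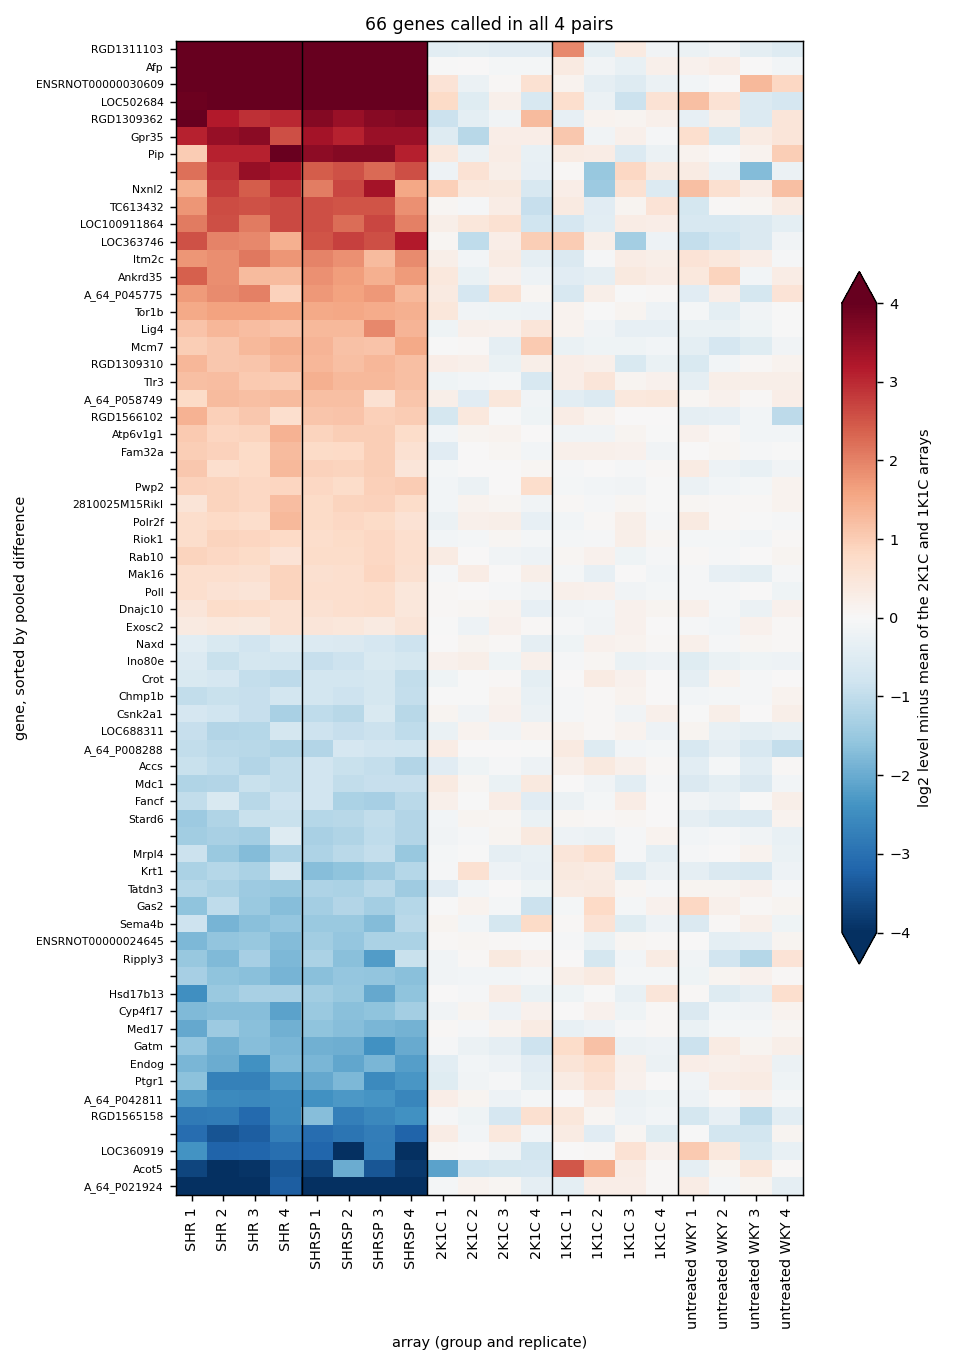
Heat map of the 66 genes called in all 4 pairs, 1 row per gene sorted by the pooled difference and 1 column per array, 4 arrays in each of the 5 groups. Colour is the log2 level minus the gene's mean over the 8 operated arrays, cut at 4 in each direction, and rows of genes not named in the text are unlabelled. The 34 higher and 32 lower genes divide SHR and SHRSP from the other groups, and untreated WKY arrays have colours like the operated ones.

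The probes behind the leading genes are 60 bases long, and the first 30 bases of each are shown because 1 probe stands for the whole gene in these data. Positions are those of the array's design on rat build rn4, sequences run 5′ to 3′ in lower case throughout, and gene annotation of that build was not used here. Paired entries show where 2 probes of a gene or of neighbouring genes were compared.
RGD1311103, chr8:83342357-83342416, minus strand: taaatcactacaggtgttttcttacctgcc
ENSRNOT00000030609, chr8:83342483-83342540, minus strand: aagttgaagagtttttaaaacaacatgcgt
Afp, chr14:19092583-19092642, minus strand: agcttttcggtttgatggtaactggtggag
LOC360919, chr14:18992870-18992929, minus strand: tccctgggaactgctgttggcccctacagt
Gpr35, chr9:92259098-92259157, plus strand: tactactacatggccaaagagttccaggat
Tlr3, first probe, chr16:50126271-50126330, plus strand: ccaaataaatacatgggattcctgaggtgt
Tlr3, second probe, chr16:50126045-50126104, plus strand: tagcacttgggtctcggaattcagcacatt
Ptgr1, chr5:77010948-77011007, minus strand: atcactgaaggatttgagaagatgcccgca
Endog, chr3:9187223-9187282, plus strand: accgaggctgatgggaagtcctatgtgaag
Gatm, chr3:109382662-109382721, minus strand: tataccagggcagaaattagtcatttgagt
Acot5, chr6:108122671-108122730, plus strand: gtactgacccatcctaagaatagctgtacc
Polr2f, first probe, chr7:117122887-117125566, plus strand: cggaccggccagtaaggagaaggtatcatg
Polr2f, second probe, chr7:117137221-117137280, plus strand: cccatgaaaggctggtatgaggtcacttcg

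The largest difference was that of RGD1311103, which the array's annotation names an oocyte-expressed protein homolog. Its SHR arrays read -0.85, 0.24, -0.07 and -0.84, and its SHRSP arrays read 0.44, 0.18, 0.31 and -0.04. The 2K1C arrays read -8.11, -8.08, -8.15 and -8.15, the 1K1C arrays -5.78, -8.09, -7.33 and -7.83, and the untreated WKY arrays -7.92, -7.84, -8.08 and -8.20. The probe was well above background on all 8 inherited arrays and on none of the other 12. The signal was therefore at least 57.4-fold higher in the inherited arteries, a bound taken against the lowest signal well above background on each operated array (measured difference 7.61 ± 0.25 SE, adjusted p = 1.67e-12). The neighbouring probe ENSRNOT00000030609, 0.126 kb away on the same strand, had the same pattern, with a difference of 6.17 ± 0.21 and a bound of at least 18.4-fold (adjusted p = 1.67e-12). The pair shares no run of more than 6 bases. The array's annotation assigns both probes to a shared transcript record, so they may measure the same transcript, although they are counted apart among the 66 genes.

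Afp read -0.46, -2.09, -2.57 and -2.40 in SHR and -1.64, -1.17, -1.35 and -2.33 in SHRSP. It read -8.06, -8.04, -8.12 and -8.11 in 2K1C and -7.69, -8.17, -8.33 and -7.83 in 1K1C, and it was not well above background on any operated or untreated array. The groups lay far apart, and the signal was at least 18-fold higher in the inherited arteries (6.29 ± 0.24, adjusted p = 9.71e-12). LOC360919, annotated as similar to alpha-fetoprotein and lying 99.7 kb from Afp, ran the other way. It read -5.14, -5.93, -5.91 and -5.75 in SHR and -5.90, -6.77, -5.54 and -7.85 in SHRSP, against -2.69, -2.72, -2.86 and -3.45 in 2K1C and -2.73, -2.68, -2.17 and -2.56 in 1K1C. It was well above background on 1 of the 4 SHR arrays and none of SHRSP, and on all operated arrays, so the signal was at least 8.10-fold lower in the inherited arteries (measured difference -3.36 ± 0.29, adjusted p = 7.92e-07). A second LOC360919 probe gave -4.36 ± 0.30, while another was well above background on 0 of 20 arrays. Alb, the serum albumin gene of the same family, was 1.73 ± 0.38 higher in the pooled comparison (adjusted p = 0.0148), was called against 2K1C in both strains and was not called against 1K1C in either (adjusted p = 0.379 for SHR and 0.241 for SHRSP). With slide as a random block Alb was not called (adjusted p = 0.293).

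Gpr35, a receptor that responds to kynurenic acid and is known best from gut and immune cells, read -3.67, -3.25, -3.13 and -4.17 in SHR and -3.43, -3.67, -3.30 and -3.30 in SHRSP. The 2K1C arrays read -7.27, -7.87, -6.49 and -6.48 and the 1K1C arrays -5.66, -6.88, -6.57 and -6.81, none of them well above background. The signal was at least 5.40-fold higher in the inherited arteries (3.26 ± 0.24, adjusted p = 1.05e-07). A further 3 genes were not well above background on any operated array. These were LOC502684, a hypothetical protein, at least 11.5-fold higher (5.12 ± 0.34), Pip, the secreted prolactin-induced protein, at least 2.32-fold (3.14 ± 0.31), and LOC363746, similar to ribosomal protein S7, at least 2.99-fold (2.36 ± 0.31). Pip and LOC363746 were well above background on 3 of 4 SHR and 4 of 4 SHRSP arrays. Pip was dimmer on SHR 1, at -6.85, than on the other 7 inherited arrays, which ran from -4.77 to -3.90.

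Among genes of immune recognition, RGD1309362, annotated as similar to an interferon-inducible GTPase, read 3.24, 2.35, 2.08 and 2.18 in SHR and 2.85, 2.61, 2.81 and 2.87 in SHRSP. It read -1.68, -1.22, -0.97 and 0.42 in 2K1C and -1.16, -0.69, -0.72 and -0.63 in 1K1C. The inherited arrays were all higher, by 3.45 ± 0.25 or 11-fold (adjusted p = 5.97e-08), and the highest operated array was 2K1C 4. Tlr3, the endosomal receptor for double-stranded RNA, read -0.33, -0.29, -0.47 and -0.50 in SHR and -0.10, -0.22, -0.24 and -0.32 in SHRSP. It read -1.71, -1.64, -1.61 and -2.17 in 2K1C and -1.26, -1.05, -1.42 and -1.37 in 1K1C. The groups did not overlap, the difference was 1.22 ± 0.11 (adjusted p = 8.40e-07), and a second Tlr3 probe gave 0.77 ± 0.12. The interferon response list had 11 of 15 genes higher and none called in the pooled comparison, with 1 at an unadjusted limma p under 0.05 and a median of 0.09 against -0.04 over all genes tested. Its lowest adjusted p was that of Mx2, an antiviral GTPase, at 0.27 ± 0.11 (adjusted p = 0.233).

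Ptgr1 read 1.20, 0.13, 0.13 and 0.56 in SHR and 0.79, 1.03, 0.28 and 0.51 in SHRSP. Its values were 2.35, 2.71, 2.78 and 2.44 in 2K1C and 3.16, 3.41, 3.02 and 2.85 in 1K1C. The enzyme's signal was 4.79-fold lower in the inherited arteries, without overlap (-2.26 ± 0.16, adjusted p = 4.84e-08). Cyp4f17, a cytochrome P450 of the family that hydroxylates fatty acids and eicosanoids, ran from -3.53 to -2.74 on the 8 inherited arrays and from -1.57 to -1.21 on the 8 operated arrays (-1.68 ± 0.11, adjusted p = 1.15e-08). Gatm read -3.59, -3.96, -3.74 and -3.87 in SHR and -3.97, -3.98, -4.47 and -4.04 in SHRSP. It read -2.09, -2.27, -2.39 and -2.87 in 2K1C and -1.31, -0.87, -2.26 and -2.23 in 1K1C. All inherited arrays lay lower (-1.92 ± 0.21, adjusted p = 1.58e-05), and a second Gatm probe gave -1.67 ± 0.27.

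Acot5 read -7.97, -8.39, -8.23 and -7.67 in SHR and -8.00, -6.27, -7.73 and -8.16 in SHRSP, none well above background. In 2K1C it read -6.44, -5.10, -4.98 and -4.98, and in 1K1C it read -1.82, -2.77, -3.99 and -4.24. The lowest 2K1C array lay just under the highest SHRSP array, and the signal was at least 3.08-fold lower in the inherited arteries (-3.51 ± 0.35, adjusted p = 3.82e-06). The operated groups themselves differed by 2.17 in their Acot5 means, without a call (adjusted p = 0.0731). Acot5 was the only one of 17 tested genes of the fatty acid oxidation list that was called in the pooled comparison, the list median being -0.17. Crot, the peroxisomal carnitine octanoyltransferase, which is not on that list, was also lower (-0.81 ± 0.10, adjusted p = 5.75e-05). Hsd17b13, a lipid droplet dehydrogenase, was 3.11-fold lower (-1.64 ± 0.20, adjusted p = 5.10e-05), with no overlap of the groups.

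Endog read -1.81, -1.96, -2.41 and -1.72 in SHR and -1.80, -2.06, -1.81 and -2.18 in SHRSP. The 2K1C arrays read -0.39, -0.08, -0.18 and -0.43, the 1K1C arrays 0.56, 0.72, 0.23 and -0.20, and the untreated WKY arrays 0.30, 0.23, 0.31 and -0.22. The inherited arteries held 3.99-fold less Endog signal than the operated ones (-2.0 ± 0.14, adjusted p = 3.70e-08), and every array of the other 3 groups lay above all 8. Naxd, which repairs hydrated NADH, and Mrpl4, a mitochondrial ribosomal protein, were lower too, at -0.61 ± 0.09 (adjusted p = 0.000341) and -1.26 ± 0.15 (adjusted p = 5.89e-05).

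**Figure D2:**
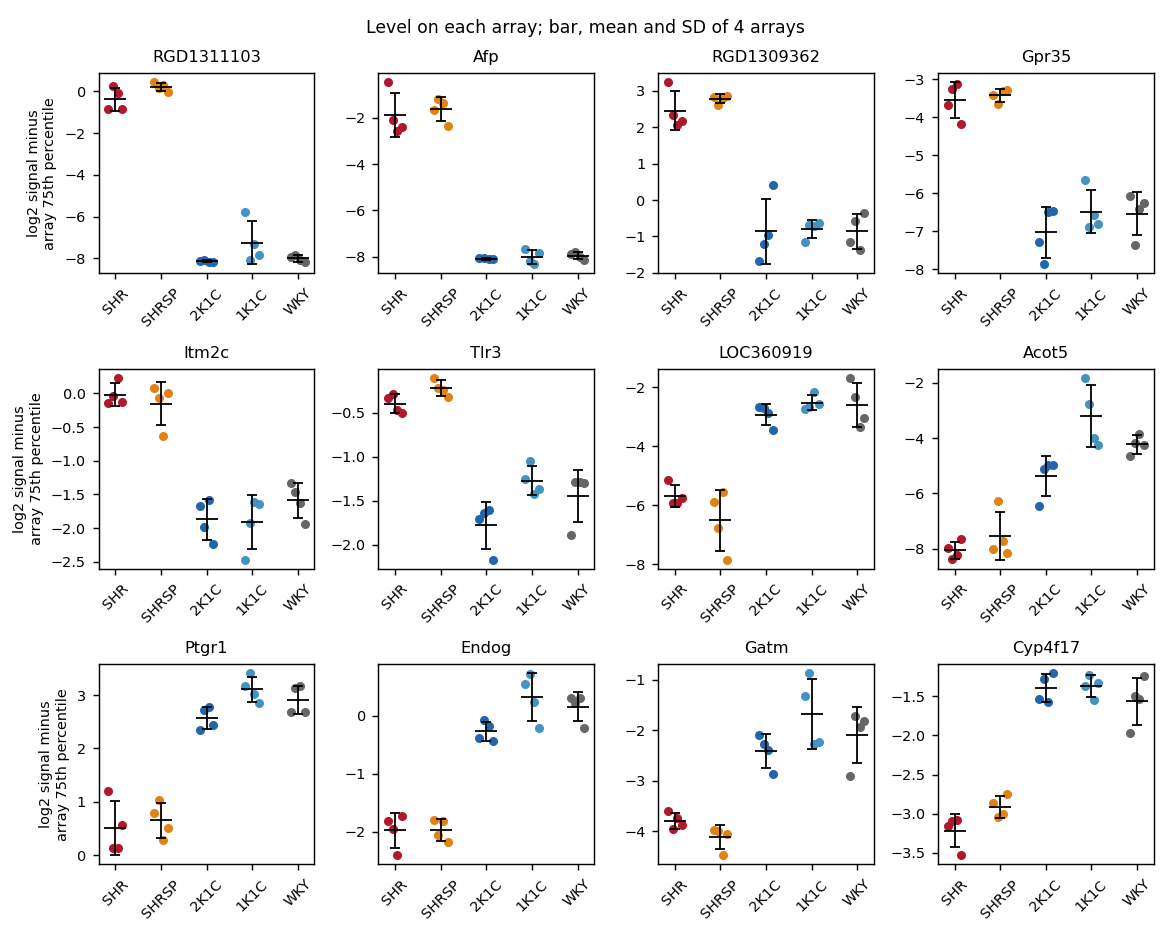
Level of 12 of the genes called in all 4 pairs on each of the 20 arrays, as log2 signal minus the array's 75th percentile; points are arrays, and the bar gives the mean and SD of 4 arrays. SHR and SHRSP lie together and apart from 2K1C and 1K1C, and untreated WKY lies with the operated groups.

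Genes that copy or repair DNA also moved in both directions. Mcm7, a subunit of the replicative helicase, read 0.75, 0.82, 1.04 and 1.17 in SHR, 1.10, 0.91, 0.88 and 1.26 in SHRSP, -0.28, -0.21, -0.62 and 0.78 in 2K1C and -0.51, -0.42, -0.42 and -0.35 in 1K1C. It was 1.24 ± 0.15 higher in the inherited arteries (adjusted p = 6.27e-05), and 2K1C 4 was the only operated array among the inherited values. Lig4, the ligase of end joining, ran from -2.15 to -1.37 on inherited and from -3.62 to -2.79 on operated arrays (1.34 ± 0.11, adjusted p = 6.18e-07). Poll, a repair polymerase, was higher by 0.65 ± 0.08 (adjusted p = 5.81e-05). Fancf, of the crosslink repair core complex, and Mdc1, a scaffold at DNA breaks, were lower, at -0.99 ± 0.13 (adjusted p = 9.19e-05) and -0.98 ± 0.11 (adjusted p = 1.50e-05). The cell cycle list, which does not hold Mcm7, had 21 of 22 genes lower and none called, with a median of -0.27 and 4 genes at an unadjusted limma p under 0.05. The mean level of the list was -3.07 to -2.43 in SHR, -2.36 to -1.72 in SHRSP, -2.54 to -1.57 in 2K1C and -2.37 to -1.71 in 1K1C, so SHR lay lowest and SHRSP within the range of the operated arrays. Mcm2, another helicase subunit, was among them at -0.46 ± 0.14 (adjusted p = 0.0916).

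Further members act in transcription and RNA handling. Pwp2 and Mak16, factors of ribosome assembly, Riok1, a kinase of ribosome maturation, and Exosc2, of the RNA exosome, were higher, by 0.88 ± 0.11, 0.71 ± 0.08, 0.78 ± 0.07 and 0.45 ± 0.08. A second Pwp2 probe, well above background on all 20 arrays, gave a smaller difference of 0.46 ± 0.08. Med17, of the Mediator complex, was 3.39-fold lower and ran from -2.99 to -2.41 on inherited and from -1.25 to -0.62 on operated arrays (-1.76 ± 0.10, adjusted p = 1.08e-09). Ino80e, of a chromatin remodeller, was lower, at -0.74 ± 0.09. Polr2f, a subunit shared by the nuclear RNA polymerases, met the rule with its brighter probe (0.80 ± 0.11), but its second probe, well above background on all 20 arrays, gave -0.07 ± 0.10. The 2 Polr2f probes therefore disagree, and the first spans an interval longer than its 60 bases. Of the 66 genes, 59 had 1 kept probe, so most could not be compared with a second kept probe.

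Members of membrane traffic and protein folding were Tor1b, a torsin of the nuclear envelope and endoplasmic reticulum (1.54 ± 0.10), Itm2c, a membrane protein that modulates amyloid precursor processing (1.81 ± 0.15), Atp6v1g1, a proton pump subunit (0.97 ± 0.09), Rab10 (0.75 ± 0.09) and Dnajc10 (0.62 ± 0.09), all higher. Chmp1b, of the membrane scission machinery, was lower (-0.84 ± 0.08), as was Stard6, of a sterol transfer family (-1.10 ± 0.11). Nxnl2, a thioredoxin-like protein known from photoreceptors, was higher with both of its probes (2.39 ± 0.33 and 2.09 ± 0.39). Sema4b, a membrane semaphorin, was lower with its brighter probe (-1.46 ± 0.21), while the second probe was well above background on 2 of 20 arrays. Ankrd35 (1.68 ± 0.19, at least 2.92-fold), Fam32a (0.89 ± 0.10) and the noncoding 2810025M15Rikl (0.85 ± 0.09) were higher. Ripply3, a transcriptional repressor (-1.56 ± 0.23, at least 2.81-fold), Gas2, a cytoskeletal protein (-1.35 ± 0.17, at least 2.53-fold), Tatdn3 (-1.30 ± 0.09) and Krt1, a keratin of keratinising epithelium (-1.28 ± 0.16), were lower. Krt1 was not well above background on any inherited array and was at least 1.72-fold lower. Ankrd35 was not well above background on any 2K1C array, Ripply3 on any of SHR and Gas2 on any SHRSP array, so those folds are bounds too.

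Accs, similar in name to the plant enzyme of ethylene synthesis, was lower (-0.98 ± 0.10). The remaining members were named only by a locus, a transcript or a probe. TC613432, LOC100911864, RGD1309310 and RGD1566102 were higher, by 2.38, 2.36, 1.24 and 1.04. ENSRNOT00000024645 and LOC688311 were lower, with differences of -1.51 and -0.95. RGD1565158 was not well above background on any inherited array and was at least 1.64-fold lower there (measured difference -2.59). Another 9 were unnamed array probes. The probe A_64_P021924 had the largest measured decrease of the 66, at least 14-fold (-4.56 ± 0.23, adjusted p = 4.00e-10). It was not well above background on any inherited array and ran from -7.59 to -5.37 on inherited arrays and from -2.46 to -1.80 on operated ones. A_64_P042811 was 5.45-fold lower (-2.45 ± 0.10, adjusted p = 1.52e-11). In all, 7 genes were not well above background on any operated array and 5 on any inherited array.

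The rule favours genes at which SHR and SHRSP lie together. The SHRSP minus SHR difference ran from -0.83 to 0.79 over the 66 genes, with a median size of 0.09, and none was called, 2 having an unadjusted p under 0.05. Over all genes tested, 59 were called between the strains (0.359%) and 585 had an unadjusted limma p under 0.05 (3.56%). The means of the untreated WKY arrays did not enter the rule, but these arrays entered the estimate of spread behind it, and without untreated WKY 1 the rule held for 80 genes. They shared a slide with 1K1C, while 2K1C lay on another and SHR and SHRSP on another again, so for the values of these arrays slide cannot be told apart from strain either. For 65 of the 66 genes the untreated mean was nearer the renovascular than the inherited mean. On a scale with 0 at the renovascular and 1 at the inherited mean, the untreated mean had a median position of 0.02 and ran from -0.44 to 0.67. The exception was the unnamed probe A_64_P008288. For the other 453 genes of the pooled call, 375 untreated means lay nearer the renovascular mean, with a median position of 0.15.

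None of the 66 genes was called by limma between 1K1C and untreated WKY (background 0%), where 8 had an unadjusted p under 0.05 and the lowest adjusted p was 0.252. None was called between 2K1C and untreated WKY (background 0.0122%), where 12 had an unadjusted p under 0.05 and the lowest adjusted p was 0.0903. The 2 operations were not called apart in any of the 66 (background 0%), with 9 at an unadjusted p under 0.05, against 3536 of all genes (21.5%). The median size of the difference over the 66 genes was 0.10 for 1K1C and 0.20 for 2K1C against untreated WKY. A p that misses the threshold does not show that operated and untreated arteries were alike. Over all genes, 1493 (9.09%) had an unadjusted p under 0.05 for 1K1C and 3617 (22%) for 2K1C against untreated WKY, with 0 and 2 called.

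**Figure D3:**
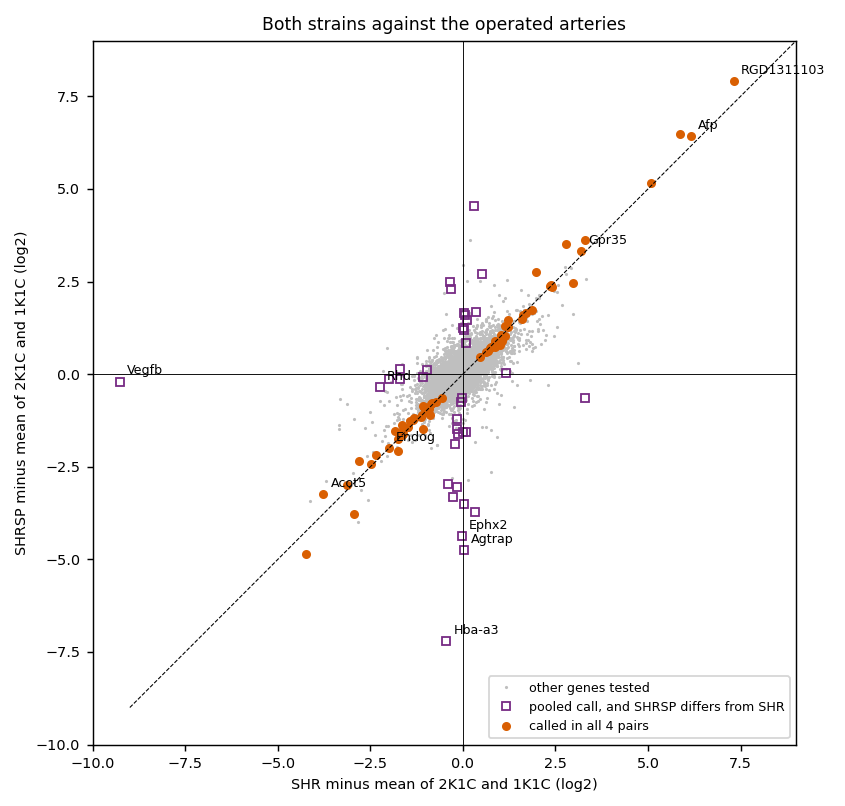
Mean log2 difference of SHR (horizontal) and SHRSP (vertical) from the mean of the operated groups for the 16424 genes tested, with a dashed line of equal difference. The 66 genes called in all 4 pairs (orange) lie along the line, while the 36 pooled calls that also differed between the strains (purple squares) lie off it.

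The pooled call also held genes that only 1 strain carried. Of the 519 genes, 36 differed between SHRSP and SHR. Vegfb, the vascular endothelial growth factor B gene, read -7.74, -8.29, -8.13 and -7.56 in SHR and 1.18, 1.48, 1.17 and 0.71 in SHRSP, against 0.69, 0.86, 0.87 and 0.31 in 2K1C and 2.38, 2.80, 1.58 and 1.19 in 1K1C. No SHR array had Vegfb well above background, so it was at least 139-fold higher in SHRSP than in SHR. Its pooled difference of -4.73 ± 0.24 (at least 13.6-fold lower) came from SHR, since SHRSP was not called against 2K1C (0.45, adjusted p = 0.718) or 1K1C (-0.85, adjusted p = 0.190). Agtrap, which promotes internalisation of the angiotensin type 1 receptor, read -4.36, -4.64, -5.11 and -4.62 in SHRSP, while the other 3 groups compared lay between -0.03 and 0.26 (pooled -2.36 ± 0.11). Hba-a3, an alpha globin gene, and Ephx2, the soluble epoxide hydrolase, were likewise low in SHRSP, with means of -7.44 ± 0.65 and -5.61 ± 0.21 (SD, n = 4). In SHR the means were -0.67 ± 0.71 and -1.27 ± 0.97. Neither gene was well above background on any SHRSP array, so they were at least 35.9-fold and 20.2-fold lower in SHRSP than in SHR. Rhd, a red cell membrane protein, was low in SHR (-5.07 ± 0.28) and not in SHRSP (-3.16 ± 0.78). The differences between the strains were called for all 5 genes, so the mean of the strains describes neither of them. With slide as a random block, none of the 5 pooled calls was kept (adjusted p = 0.606, 0.626, 0.555, 0.672 and 0.591 for Vegfb, Agtrap, Hba-a3, Ephx2 and Rhd). That fit joined the strains and counted the difference between SHR and SHRSP as spread, so these losses cannot be laid to slide.

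Other pooled calls were called against 1K1C and not against 2K1C, or in some of the pairs. Srxn1, which reduces oxidised peroxiredoxins, was lower, at -0.98 ± 0.19 (adjusted p = 0.00448) and was called against 1K1C in SHR and SHRSP (adjusted p = 0.0160 and 0.00458) but not against 2K1C (adjusted p = 0.407 and 0.384). Cxcl9, a chemokine that attracts T cells, was lower, at -1.15 ± 0.18 (adjusted p = 0.00103), and was not called against 2K1C in either strain. C4bpa, a regulator of complement (-3.78 ± 0.47), and Sbk1, a kinase (-2.82 ± 0.40), were called in 3 of the 4 pairs, and Dpt, the matrix protein dermatopontin (1.36 ± 0.17), in 3. C4bpa ran from -8.20 on SHR 2 to -4.82 on SHRSP 3 over the inherited arrays. The dimmest of these values lie at background, so the size of its difference is uncertain. Hspa1b, an inducible heat shock protein (2.83 ± 0.61), was called against 1K1C but not against 2K1C in both strains. Cldn19, a tight junction protein (2.89 ± 0.72), was called in none of the pairs. Kcne2, a potassium channel subunit (1.48 ± 0.28), and Ccl12, a monocyte chemoattractant that no SHR array had well above background (-2.35 ± 0.46, at least 3.53-fold), were called in 1 and 2 of the SHR pairs and in no SHRSP pair. Neither the difference between the operations nor that between the strains was called for any of these genes. With slide as a random block, the calls of Srxn1, Cxcl9, Hspa1b, Cldn19, Kcne2 and Ccl12 were lost (adjusted p = 0.174, 0.0709, 0.246, 0.321, 0.0719 and 0.267). That fit counted differences between the operations and between the strains as spread. Cldn19 lost its call with any of 10 arrays left out (adjusted p up to 0.0711). It also lost it without the 4 arrays that stood apart (adjusted p = 0.0884), as did Ccl12 (0.0512).

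The 32 gene lists, chosen by role with earlier results of these data known, show how the rest of the artery's genes lay. Over all genes tested the median difference was -0.04 and 43.2% were higher in the inherited arteries. The smooth muscle contractile list had 14 of 14 genes higher with a median of 0.58 and none called, 0 having an unadjusted limma p under 0.05. Lmod1, a leiomodin that nucleates actin, had the lowest adjusted p of the list (1.00 ± 0.50, adjusted p = 0.305). The mean level of the list was 2.34 to 4.50 in SHR, 3.43 to 4.46 in SHRSP, 3.06 to 4.54 in 2K1C and 0.47 to 3.65 in 1K1C, so the groups overlapped. The median array was at 4.27 in SHR, 3.85 in SHRSP, 4.25 in 2K1C and 3.07 in 1K1C. So 1K1C lay lowest, and 2K1C lay close to SHR and above SHRSP. The immediate early list had 15 of 19 genes higher, a median of 0.49 and none called, with 7 at an unadjusted limma p under 0.05 and Atf3, a stress-induced transcription factor, at 2.00 ± 0.56 (adjusted p = 0.0619). Its mean level was -0.95 to 0.01 in SHR, -0.45 to 0.26 in SHRSP, -0.88 to 0.50 in 2K1C and -1.60 to -0.74 in 1K1C, so 2K1C overlapped both strains and 1K1C lay lowest.

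Endothelial genes were close to the background of all genes, with 9 of 14 higher, a median of 0.14 and none called (3 at an unadjusted limma p under 0.05). Tie1, an endothelial receptor kinase, was at 0.66 ± 0.21 (adjusted p = 0.109) and Nos3, the endothelial nitric oxide synthase, at 0.36 ± 0.23 (adjusted p = 0.428). The other 5 genes of the list were lower, and the lowest adjusted p among these 5 was close to that of Tie1 (-0.49 ± 0.16, adjusted p = 0.111). Of the nitric oxide, endothelin and natriuretic peptide genes, 9 of 12 were higher and none was called, 1 having an unadjusted limma p under 0.05; Pde5a, which degrades cyclic GMP, was at 0.96 ± 0.36 (adjusted p = 0.170). The matrix lists had medians of 0.12 for collagens, 0.16 for elastic fibre genes and 0.24 for proteoglycans and matricellular genes. The last of these lists had 4 of 15 genes at an unadjusted limma p under 0.05. None of the collagens (1 at an unadjusted limma p under 0.05) or elastic fibre genes (0) was called, and the only call of the 3 lists was Ccn1, a matricellular protein (1.63 ± 0.40, adjusted p = 0.0315), which in single pairs was called for SHRSP against 1K1C alone and lost its pooled call with any of 9 arrays left out (adjusted p up to 0.0789) and with slide as a random block (0.579). Col4a2, a basement membrane collagen, was at 0.68 ± 0.24 (adjusted p = 0.146), Ltbp1, which holds latent TGF-beta, at 0.56 ± 0.34 (adjusted p = 0.401) and Eln, elastin, at 0.30 ± 0.60 (adjusted p = 0.826).

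In the renin-angiotensin list, 2 of 11 genes were called, Agtrap among them, both lower. Ace, the converting enzyme (0.02 ± 0.21, adjusted p = 0.978) and Agtr1a, the type 1 receptor (-0.06 ± 0.17, adjusted p = 0.885), were not, and their signs changed under other settings. Of the channel list, 16 of 21 genes were higher with a median of 0.30 and none called, 5 having an unadjusted limma p under 0.05. Itpr1, the calcium release channel, was at 0.74 ± 0.23 (adjusted p = 0.101). The median array of the channel list was at -0.45 in SHR, -0.66 in SHRSP, -0.64 in 2K1C and -1.11 in 1K1C. So 1K1C lay lowest and 2K1C close to SHRSP. None of the 8 adrenergic receptors was called by limma, 1 having an unadjusted p under 0.05, and Adra2b had the lowest adjusted p (-0.46 ± 0.16, adjusted p = 0.144). Ephx2 was the only call among 12 eicosanoid enzymes, Srxn1 among 15 antioxidant and NADPH oxidase genes, and Cxcl9 among 13 chemokine and adhesion genes.

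Gstt1, a theta class glutathione transferase, was the only call among 13 glutathione S-transferases (1.10 ± 0.20, adjusted p = 0.00278), and was not called with slide as a random block (adjusted p = 0.0918). Hspa1b was the only call among 16 chaperones, of which 14 were higher with a median of 0.20 and 5 had an unadjusted limma p under 0.05. Errfi1, an inhibitor of the EGF receptor, was the only call among 13 glucocorticoid response genes (1.20 ± 0.30, adjusted p = 0.0335), where the median was 0.30. Of these 13 genes, 5 had an unadjusted limma p under 0.05. The median array of the glucocorticoid list was at 0.44 in SHR, -0.101 in SHRSP, -0.095 in 2K1C and -0.42 in 1K1C. So SHR lay highest, and SHRSP lay close to 2K1C. Errfi1 lost its call with any of 11 arrays left out (adjusted p up to 0.0816) and with slide as a random block (0.454). The cholesterol synthesis list had 12 of 14 genes higher with a median of 0.28 and none called, 6 having an unadjusted limma p under 0.05. Its lowest adjusted p belonged to a gene that ran the other way, Dhcr7, the last enzyme of the pathway (-0.96 ± 0.28, adjusted p = 0.0762). Dhcr7 means were -0.56 in SHR, 0.85 in SHRSP, 0.42 in 2K1C and 1.79 in 1K1C, so SHRSP lay above 2K1C. The median array of the cholesterol list was at 0.49 in SHR, 0.83 in SHRSP, 0.43 in 2K1C and 0.57 in 1K1C. So SHRSP lay highest, and SHR lay between the operated groups. The circadian clock list (median 0.05, Nfil3, a clock-linked repressor, at 0.81 ± 0.23, adjusted p = 0.0678) and the antigen presentation list (median -0.07, Tap2, a peptide transporter, at 0.49 ± 0.28, adjusted p = 0.367) had no call, with 5 and 0 genes at an unadjusted limma p under 0.05.

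**Figure D4:**
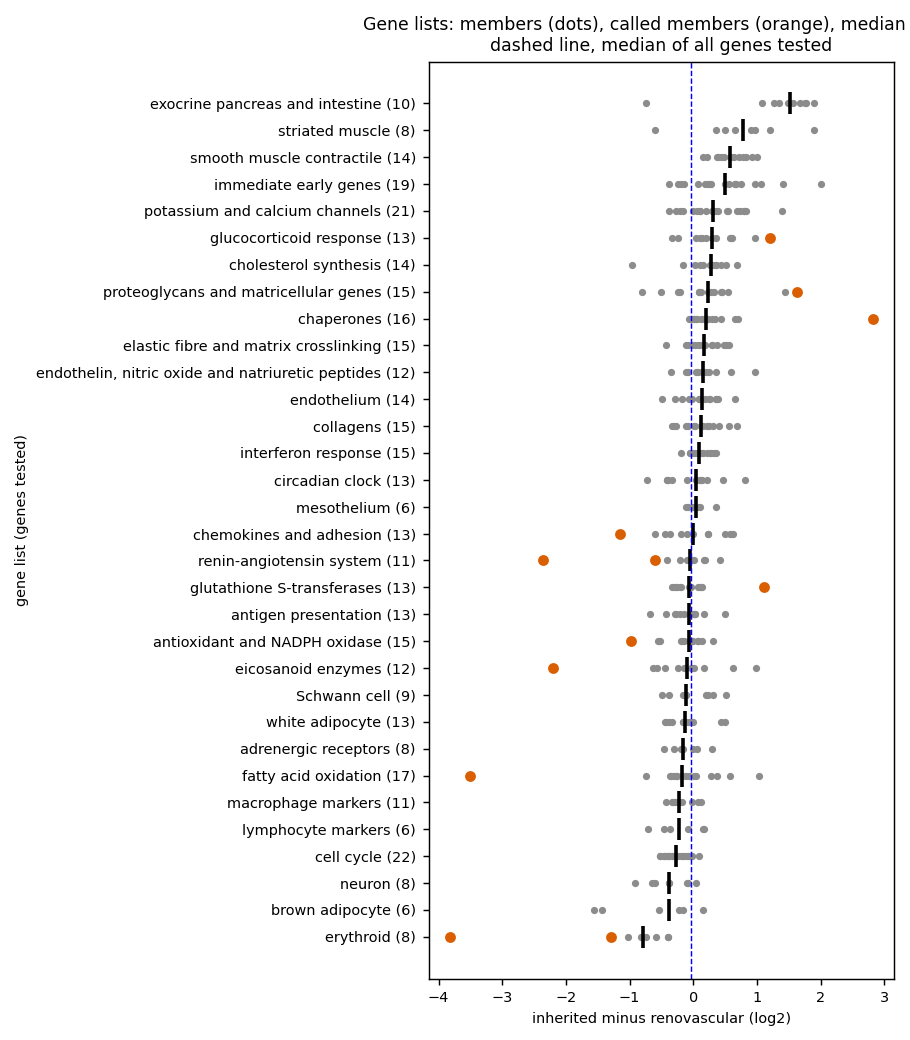
Differences of inherited minus renovascular arteries (log2) for the tested genes of the 32 lists, with called genes in orange, the list median as a bar and the median over all genes as a dashed line. The called points number 12, and 1 of them, Acot5, was called in all 4 pairs.

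Markers of other cell types were measured beside these results. The erythroid list had 8 of 8 tested genes lower, a median of -0.79 and 2 calls, Hba-a3 and Rhd, each carried by 1 strain. Of its 8 genes, 4 had an unadjusted limma p under 0.05. The mean level of the list was 0.51 to 1.64 in SHR, -0.55 to 1.23 in SHRSP, 1.40 to 2.31 in 2K1C and 1.32 to 2.83 in 1K1C, and 1.67 to 2.60 in untreated WKY. The SHRSP level of the list is lowered by Hba-a3, whose mean was -7.44 there and -0.67 in SHR. White adipocyte markers were at 2.63 to 4.33 in SHR, 2.55 to 3.39 in SHRSP, 2.03 to 2.91 in 2K1C and 3.19 to 4.50 in 1K1C, with 10 of 13 lower, a median of -0.13 and Scd, a desaturase, at -0.44 ± 0.21. Brown adipocyte markers had 5 of 6 genes lower and a median of -0.38, with Otop1, a proton channel, at -0.54 ± 0.19. Macrophage markers had 9 of 11 lower with a median of -0.23 and Itgam, an integrin, at -0.42 ± 0.13, and lymphocyte markers 4 of 6 with a median of -0.23 and Cd4, the helper T cell coreceptor, at -0.37 ± 0.44. The exocrine pancreas and intestine list had 9 of 10 higher with a median of 1.53, with Ctrb1, chymotrypsinogen, at 1.78 ± 0.87. Striated muscle had 7 of 8 genes higher with a median of 0.78, and Mb, myoglobin, was the only lower gene, at -0.60 ± 0.18. Schwann cell (5 of 9 lower, median -0.12, Mag, a myelin protein, at -0.50 ± 0.20), neuron (7 of 8 lower, median -0.37, Gap43, a growth cone protein, at -0.91 ± 0.49) and mesothelial genes (4 of 6 higher, median 0.04, Krt18, a keratin, at 0.35 ± 0.60) completed the set. None of these lists but the erythroid one had a gene called by limma. Striated muscle had 4 of 8 genes at an unadjusted limma p under 0.05, against 17.6% of all genes tested. Each of the other lists without a call had 0 or 1 such gene. The pancreatic list ran from -5.22 to 1.33 in SHRSP, with only 4 of its 10 genes well above background on all 20 arrays. The part of these cell types in the 66 genes was not tested.

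Some members lay near each other on the chromosomes. Of 62 members with a placed probe, 13 had another member within 1 Mb (21%), against 7.57% of the 15777 other placed genes that had a member within that distance. These were the 2 probes of chromosome 8, Afp with LOC360919, Fancf with Gas2, Hsd17b13 with the unnamed probe A_64_P045775, Csnk2a1 with LOC502684, and Endog with Tor1b and Exosc2. Of the 7 neighbouring pairs, 3 shared a direction (both probes of chromosome 8, Fancf with Gas2, and Tor1b with Exosc2) and 4 did not. The probes of chromosome 8 may measure the same transcript, so these counts may include a gene beside itself. Endog was lower, at -2.0, while Tor1b, 836 kb away, was higher by 1.54, and Csnk2a1, a kinase subunit, was lower, at -0.94 while LOC502684 was higher. Chromosome 16 held 7 members of 448 genes tested (1.56%), among them Tlr3, Lig4, Naxd, Mak16 and Fam32a, against 0.402% over all genes. Chromosome 3 held 9 of 1145 (0.786%). These shares are descriptions without a test.

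**Figure D5:**
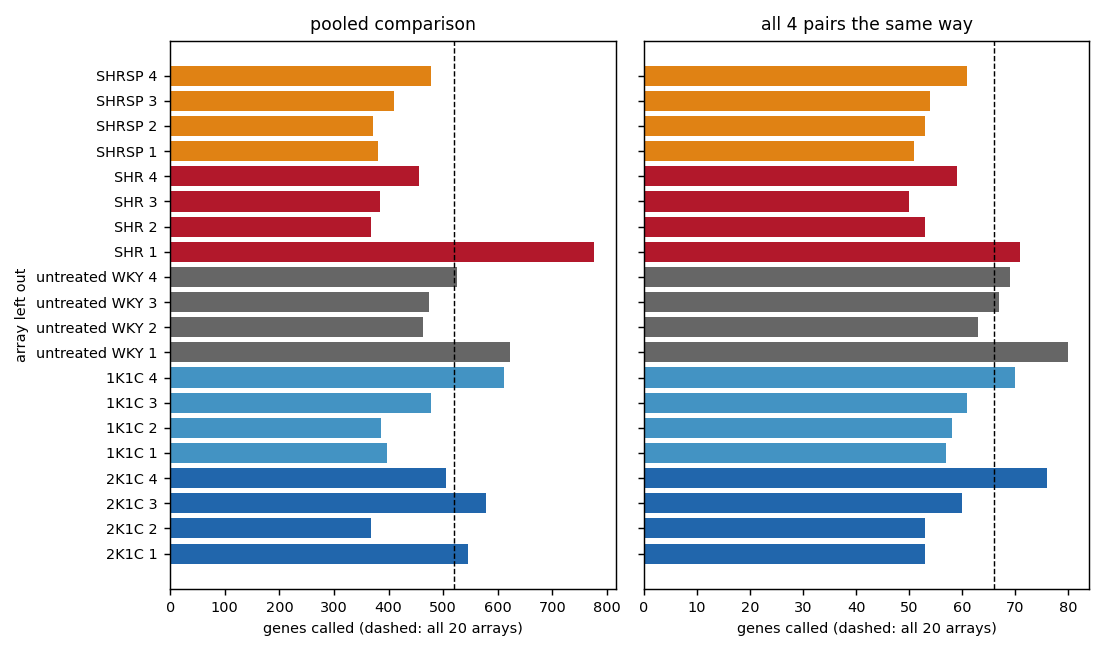
Number of genes called with each of the 20 arrays left out, in the pooled comparison (left) and in all 4 pairs the same way (right), with the count from all arrays as a dashed line. The pooled count ran from 367 to 777 and the count in all 4 pairs from 50 to 80.

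The calls of single genes differed in how firmly they held. With any 1 of the 20 arrays left out, all 66 genes were still called in the pooled comparison, and 41 of them met the rule of all 4 pairs in every one of the 20 fits. The other 25 lost it in at least 1 fit, down to Exosc2, which kept it in 4 of 20. Afp, Gpr35, Tlr3, Ptgr1, Endog and Cyp4f17 kept it in all 20. Acot5 kept it in 14, Gatm in 15 and Mcm7 in 16.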

How the data were processed

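Agilent 1-colour arrays of 20 rat mesenteric artery samples were used, 4 in each of 5 groups. The submitters' processing notes name Agilent Feature Extraction 10.7.3.1 as the scanner software. Its processed signal, the deposited intensity, was background-subtracted and detrended within each array, with design build rn4, per the file headers. Saturated spots numbered 0. The deposited value table equals this signal without scaling between arrays.

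Each signal was divided by its array's 75th percentile, taken without control spots, log2 transformed and averaged over the spots of a probe without spots marked as outliers. A probe was kept where some group had it well above background on each of its 4 arrays, and the brightest probe stood for a gene. Of 30367 probes, 18355 were named through an accession in a RefSeq table, and 12012 kept the name in the files. Sequence differences between strains under the probes were not examined.

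limma 3.58.1 in R 4.3.3 was fitted to all 20 arrays in 5 groups without covariates, because slide could not enter the fit. Tests were two-sided. Differences are given ± SE unless marked SD. The fit was tested on simulated data of 16424 genes for this comparison. It recovered 88% of genes shifted by 1 and 97% of those shifted by 2 in the pooled comparison, and 51% and 86% in all 4 pairs. The simulated noise was normal and independent between genes and arrays, without slide effects or arrays standing apart. Recovery in the real data may therefore differ.

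Members and lists were chosen with earlier results of these data known. Named genes were the 14 largest named differences in each direction among the genes called in all 4 pairs, up to 3 genes per list, and 12 genes fixed by name. The other names, RGD1311103, ENSRNOT00000030609, RGD1309362, LOC502684, LOC360919, LOC363746, Pip, Crot, Exosc2, Naxd, Poll, Mdc1, Mak16, Riok1, Ino80e, Polr2f, Rab10, Dnajc10, Chmp1b, Csnk2a1, Accs, TC613432, LOC100911864, RGD1309310, RGD1566102, RGD1565158, ENSRNOT00000024645, LOC688311, Dusp19, Cep295, Acsf2, Alb, C4bpa, Sbk1, Dpt, Cldn19, Kcne2, Ccl12 and the unnamed probes, were chosen after their values were seen. A few members are not reported here by name. The alternatives tried were other scalings, background corrections, probe filters, probe choices, sets of arrays, array weights and blocks.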

Additional observations from a re-analysis of the deposited data

Results flagged for a closer look

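Single arrays that lay far from the other 3 of their group were found in 41 of 540 groups of 4 (Dixon's test), and chance gives about 1 group in 20. Values are levels, log2 signal minus the array's 75th percentile.

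SHR 1 was the lowest of its group for Lmod1 (-1.19), Ltbp1 (-1.33), Nfil3 (-0.94), Pde5a (-2.02) and TC613432 (-1.24), and the highest for Dhcr7 (0.53), Otop1 (-4.62) and Acsf2 (-6.02). The lowest of 2K1C was array 4 for Atf3 (0.37), Hspa1b (-0.28), Ltbp1 (-0.91) and Tlr3 (-2.17), which was also the highest for Mcm2 (-1.12). Array 1 of 2K1C was lowest for Acot5 (-6.44), Otop1 (-5.50) and Scd (7.24) and highest for Tor1b (-3.18) and the probe A_64_P008288 (-4.24). Array 3 of 2K1C was lowest for Ino80e (-0.42) and RGD1309310 (-1.97).

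In SHRSP, array 4 was lowest for Col4a2 (0.15), Pip (-4.74), Poll (1.37) and TC613432 (-1.18) and highest for Sbk1 (-2.45). SHRSP 3 was lowest for Cxcl9 (-3.48), Gatm (-4.47) and the probe A_64_P058749 (0.26) and highest for Lig4 (-1.37) and Mak16 (-0.25). SHRSP 2 was highest for Agtr1a (0.24), and SHR 4 highest for Mak16 (-0.21). In 1K1C, array 1 was lowest for Krt18 (-4.31) and RGD1309362 (-1.16), and array 4 for Fam32a (2.83). In untreated WKY, array 1 was lowest for Agtrap (-0.34) and Tlr3 (-1.89) and highest for Hspa1b (1.90), and array 4 was lowest for Endog (-0.22) and highest for Pip (-6.85) and Tie1 (-1.74).

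The strains differed by limma with Benjamini-Hochberg adjustment for 5 of the genes named. SHRSP minus SHR was -4.78 for Agtrap and 1.90 for Rhd. Vegfb in SHR, and Hba-a3 and Ephx2 in SHRSP, were not well above background on any array, so their measured differences of 9.06, -6.76 and -4.34 stand for at least 139-fold higher, 35.9-fold lower and 20.2-fold lower in SHRSP.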

How the results depend on the processing

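The pooled comparison called 519 genes and the rule of all 4 pairs 66. Leaving out 1 array gave 367 to 777 and 50 to 80, and all 66 genes were called in the pooled comparison in each of those fits. Array weights gave 4018 and 213. Slide as a random block gave 121 in the pooled comparison (correlation 0.124) and group as a random block 271 (0.0482), with no fit for single pairs. Both block fits joined the strains and joined the operations, so differences within a side entered the spread. The replicate block gave 505 and 66, of which 61 were among the 66. Replicate numbers did not pair the arrays, since correlations of same-numbered arrays ran from -0.566 to 0.642 and 4 of 16 arrays correlated best with their own number. Other scalings, background corrections, filters and probe choices gave 359 to 685 and 45 to 79, and a fit to the 16 arrays compared gave 541 and 72. Of the 66 genes, Crot and Naxd alone lost the pooled call among these, on the deposited signals without scaling, apart from genes that the strictest filter did not test. Leaving out the 4 arrays that stood apart was chosen after seeing the data, as were the slide and group blocks for single genes.

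Values that changed sign were all uncalled. Ace was at -0.030 with array weights, -0.058 without the 4 arrays that stood apart, and from -0.082 to 0.10 with 1 array left out, below 0 without 2K1C 3, 2K1C 4, 1K1C 2, SHR 3, SHR 4 or SHRSP 3. Agtr1a was at 0.21 on the deposited signals without scaling, and above 0 without 2K1C 1 (0.0079) or 1K1C 2 (0.018, the highest). Eln ran from -0.16 (without 1K1C 2) to 0.58 with 1 array left out and was at -0.039 without the 4 arrays that stood apart. Krt18 ran from -0.15 (without 1K1C 1) to 0.61 with 1 array left out. Over the genes named, the pooled difference kept direction and call in 3525 of the alternatives run, lost the call in 62 and gained it in 41. Ccn1 lost its call without 2K1C 2, 2K1C 4, 1K1C 1, 1K1C 2, SHR 2, SHR 3, SHRSP 1, SHRSP 2 or SHRSP 3. Cldn19 lost its call without 2K1C 2, 2K1C 4, 1K1C 1, 1K1C 2, SHR 2, SHR 3, SHR 4, SHRSP 1, SHRSP 2 or SHRSP 3. Errfi1 lost its call without 2K1C 2, 2K1C 3, 2K1C 4, 1K1C 1, 1K1C 2, SHR 2, SHR 3, SHR 4, SHRSP 2, SHRSP 3 or SHRSP 4. The cause of these changes was not tested.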
